A study of Brassica napus and Orychophragmus violaceus with 4 samples.

Results

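Petals of purple-flowered *Orychophragmus violaceus* (OvP, the wild type) were compared with petals of its white-flowered natural mutant (OvW), gene by gene and outside the anthocyanin pathway. *O. violaceus* is an ornamental crucifer related to the Brassica crops. Each plant material was represented by 1 library of polyadenylated petal RNA taken when the flowers of greenhouse plants had opened in part, and 2 of the 4 libraries of the series enter here. The sources used here do not say how many plants stood behind each library, how closely purple and white plants were related, or which mutation makes the petals white. Reads had been counted on the genes of *Brassica rapa*, a related species, since the petals were mapped to that genome. The compared genes are those with 20 or more reads over OvP and OvW together, which were 14829 of the 37441 genes in the deposited read sheet. They held 97.0% of the counted reads of OvP and 97.2% of those of OvW.

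A gene is said here to be higher or lower in OvP when it was called, which needed a p of 0.01 or less in the exact binomial test of edgeR, together with a change of 2-fold or more in either direction. Counts were scaled by TMM, a factor that makes most genes alike between libraries. With 1 library per plant material no difference has a replicate check, so each call compares these 2 libraries and not the plant materials. Intervals in parentheses are 95% exact binomial (Clopper-Pearson) intervals of the fold and cover counting error only. Where a library had 0 reads, the fold was computed against a floor of 3 reads and is given as "at least" that fold. This floor value is a convention and not a lower limit, since the interval reaches below it. The interval bound nearest to 1 is given after "from". Gene names and functions are those of the Arabidopsis match given for each *B. rapa* gene. An identifier alone is given where a match had no symbol.

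Petals are short-lived organs in which cells end division early and then expand. Their colour, scent and surface come from specialised metabolism in the epidermis, fed by phenylalanine for phenylpropanoids and by plastid isoprenoids for scent and carotenoids. While petals grow, enzymes such as xyloglucan endotransglucosylases remodel the wall, and young petals still hold green plastids. Auxin, jasmonate and gibberellin govern this growth, and MADS-box factors keep petal identity.

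Of the 14829 genes, 1606 (10.8%) were higher and 1702 (11.5%) lower in OvP, and the remaining 11521 were not called, so that 22.3% were called in either direction. The median log2 fold over all compared genes was -0.01. Genes for light harvesting, the Calvin cycle, lignin precursors, xyloglucan and pectin remodelling and auxin response were mostly lower in OvP where called. Genes for polyamines, cytosolic ribosomes, heat shock and the abscisic acid, cold and drought responses were mostly higher in OvP where called. Among transcription factor genes outside the anthocyanin list, 42 were higher and 84 lower.

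Depth set what could be called. The counted reads totalled 1850787 in OvP and 2040729 in OvW, and at least 10 reads were found for 14648 and 14810 genes in the same order. The floor of 3 reads corresponded to 1.57 CPM in OvP and 1.51 CPM in OvW, CPM being reads rescaled so that both libraries have the same total. A gene with 20 reads was called only at a split of 16 reads in OvP against 4 in OvW or more, a 4.16-fold difference, or at 3 against 17 or fewer in OvP, which is 5.45 times lower. With 50 reads the needed folds were 2.42 upward and 2.25 downward, and with 100 reads they were 2.02 and 2.05. The compared genes had a median of 78 reads, and 5133 of them (34.6%) had fewer than 50. Of these shallow genes 19.5% were called. The share did not climb steadily with depth: it was 26.7% at 50 to 99 reads, 24.7% at 100 to 199, 19.7% at 200 to 499, 20.3% at 500 to 999 and 23.4% at 1000 or more. For a shallow gene that was not called, a difference of 2-fold was therefore not detectable at this depth. If samples of 1 plant material were assumed to vary with a coefficient of variation of 0.4, instead of by counting error alone, 226 genes (1.52%) would be higher and 330 (2.23%) lower, 3.75% of those compared.

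**Figure D1:**
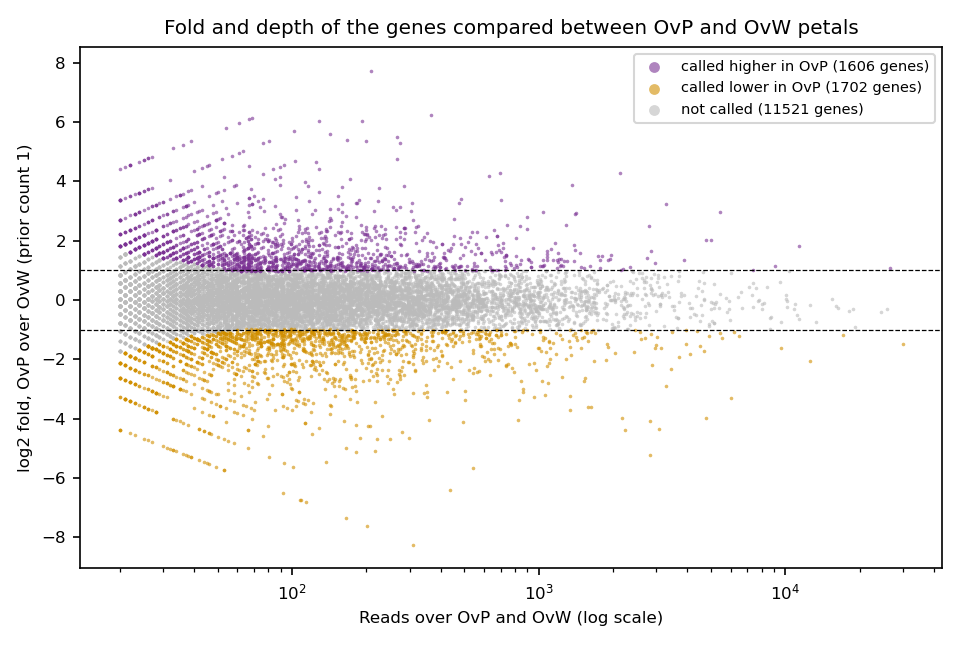
Each point is a gene compared between OvP and OvW, with its reads over both libraries on the x axis (log scale) and its log2 fold of OvP over OvW on the y axis, computed with a prior count of 1, and dashed lines at a fold of 2 in each direction. The 1606 genes called higher (purple) and the 1702 called lower (ochre) start at wider folds on the left, where genes have 20 to 50 reads, and reach the dashed lines from about 100 reads on.

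Petal genes were read in both libraries. *AP3* and *PI* encode the B-class MADS-box factors that specify petals, and the copy of *AP3* with the most reads had 3495 in OvP against 6100 in OvW, which was not called. Its level per gene length was 2648 RPKM (reads scaled to gene length and to mapped reads) in OvP and 4204 RPKM in OvW. Summed reads of carpel and ovule markers were 26 in OvP and 28 in OvW, and no gene of that list reached 20 reads. Anther and pollen markers summed to 130 reads in OvP and 172 in OvW, and none of the 5 with 20 or more reads was called. With reads summed over copies, 1 of 5 such markers was lower and none was higher. *QRT3*, below the minimum of 20 reads, had 15 reads in OvP against 0 in OvW. The colour difference was visible in the reference genes of the pathway: *TT18*, the anthocyanidin synthase gene, had 140 reads in OvP against 2 in OvW (72.7-fold, 19.8 to 607), and *TT3*, of dihydroflavonol reductase, 90 against 34 (2.75-fold, 1.83 to 4.21). *TT19*, of anthocyanin transport, was 3.42-fold higher (2.43 to 4.88), and *MYC6.2*, the sheet's symbol for the bHLH gene *GL3*, at least 18.7-fold (from 14.7). The whole anthocyanin and flavonoid list had 8 higher and 3 lower of 17 compared genes. Its summed reads were 2098 in OvP against 2863 in OvW. Of 8 compared anthocyanin regulator genes, 1 was higher and none was lower.

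Gene lists drawn on Arabidopsis symbols are described by how many of their members with 20 or more reads were called in each direction and by the median log2 fold, beside the same for all compared genes. No list was tested as a whole.

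**Figure D2:**
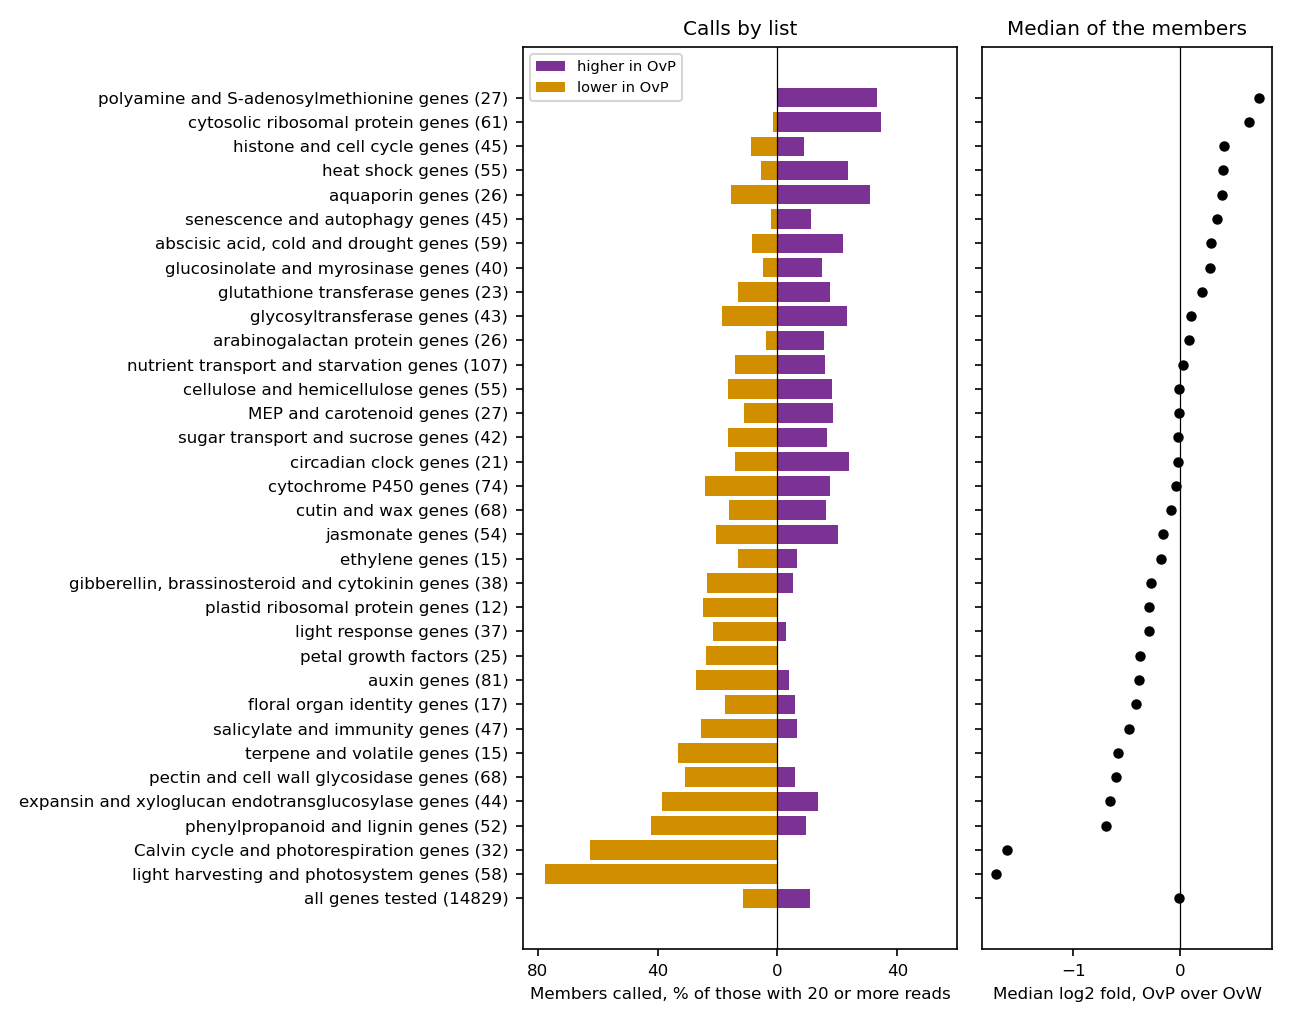
Left, the share of each list's compared members that was called lower (ochre, to the left) or higher (purple, to the right) in OvP, with the number of compared members in parentheses. Right, the median log2 fold of OvP over OvW of the same members. The lists drawn run from polyamine genes at 0.73 to light harvesting and photosystem genes at -1.73, and all compared genes lie at -0.01. Marker lists and the anthocyanin lists are not drawn.

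Genes of the photosynthetic apparatus were lower in OvP almost throughout. Light harvesting proteins and photosystem subunits capture light in the thylakoid membrane, and of 58 such genes 45 were lower, none was higher and 13 were not called. All 58 had a fold below 1, and their median log2 fold was -1.73. Summed over the list, they had 4135 reads in OvP against 13901 in OvW. *LHCB2.1*, of the main antenna of photosystem II, had 1064 reads in OvP against 3605 in OvW and was 3.26 times lower (3.04 to 3.49). *LHCA4*, of the photosystem I antenna, had 316 reads in OvP against 1358 in OvW and was 4.14 times lower (3.66 to 4.69). *PSBO1* encodes a protein of the oxygen-evolving complex, and its copies were unequal. Bra037164 had 9 reads in OvP against 198 in OvW, Bra031813 had 119 against 672, and Bra012083 had 406 against 601 and was not called. *PSAO*, a photosystem I subunit gene, was lower at each of its 3 copies, with 26 reads in OvP against 248 in OvW over all.

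The Calvin cycle fixes carbon dioxide with these products of the light reactions, and photorespiration recycles the by-product of rubisco. Of 32 genes of both pathways, 20 were lower in OvP, none was higher, and the median log2 fold was -1.62. *RCA*, encoding rubisco activase, was lower at its 3 copies, by 12.4 times (10.3 to 15.1) at Bra017055 with 118 reads in OvP against 1517 in OvW, by 10.4 times at Bra005019 and by 4.93 times at Bra000144. *SBPASE*, of sedoheptulose bisphosphatase in the regeneration phase of the cycle, had 30 reads in OvP against 237 in OvW over 3 copies and was 7.57 times lower as a sum. *GLDP1* encodes the P-protein of glycine decarboxylase in photorespiration and had 129 reads in OvP against 902 in OvW (6.73 times lower, 5.59 to 8.16). *GLUS*, the ferredoxin-dependent glutamate synthase gene of plastid ammonium assimilation, had 5 reads in OvP against 212 in OvW (40.8 times lower, 17.2 to 127). *PSRP3/2*, a gene of a plastid ribosomal protein, had 0 reads in OvP against 201 in OvW, at least 64.5 times lower (from 52.0). Of 12 plastid ribosomal protein genes, 3 were lower, *PSRP3/2* and both copies of *RPS1*. The called share of this list was near the 22.3% of all compared genes, and its median log2 fold was -0.29. In whole petals, fewer cells of a type and less RNA per cell cannot be told apart.

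Other markers of green tissue were few. Of 4 compared genes of sepal and leaf markers, 3 were copies of *AP1*, which is in the petal list as well, and none of these was called. The other was *YAB1*, with 80 reads in OvP against 269 in OvW (3.24 times lower, 2.51 to 4.21). *YAB1* encodes a factor of lateral organ polarity. Guard cell markers summed to 127 reads in OvP and 214 in OvW, and none of their 3 compared genes was called. Both lists are small, and their part in the lower photosynthesis genes was not tested. Light response genes had 1 of 37 higher and 8 lower, 24.3% called against 22.3% of all compared genes. Among the lower ones was *ELIP2*, an early light-inducible protein gene with 8 reads in OvP against 134 in OvW (16.1 times lower, 7.95 to 38.1). *PHOT2*, a blue light receptor gene, was 2.09 times lower (1.92 to 2.27) at Bra020388, but its 3 copies summed to 2810 reads in OvP against 4203 in OvW and were not called. The higher member was a copy of *ELIP1*, with 225 reads in OvP against 115 in OvW, and the sum of its 3 copies, 650 against 460, was not called.

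**Figure D3:**
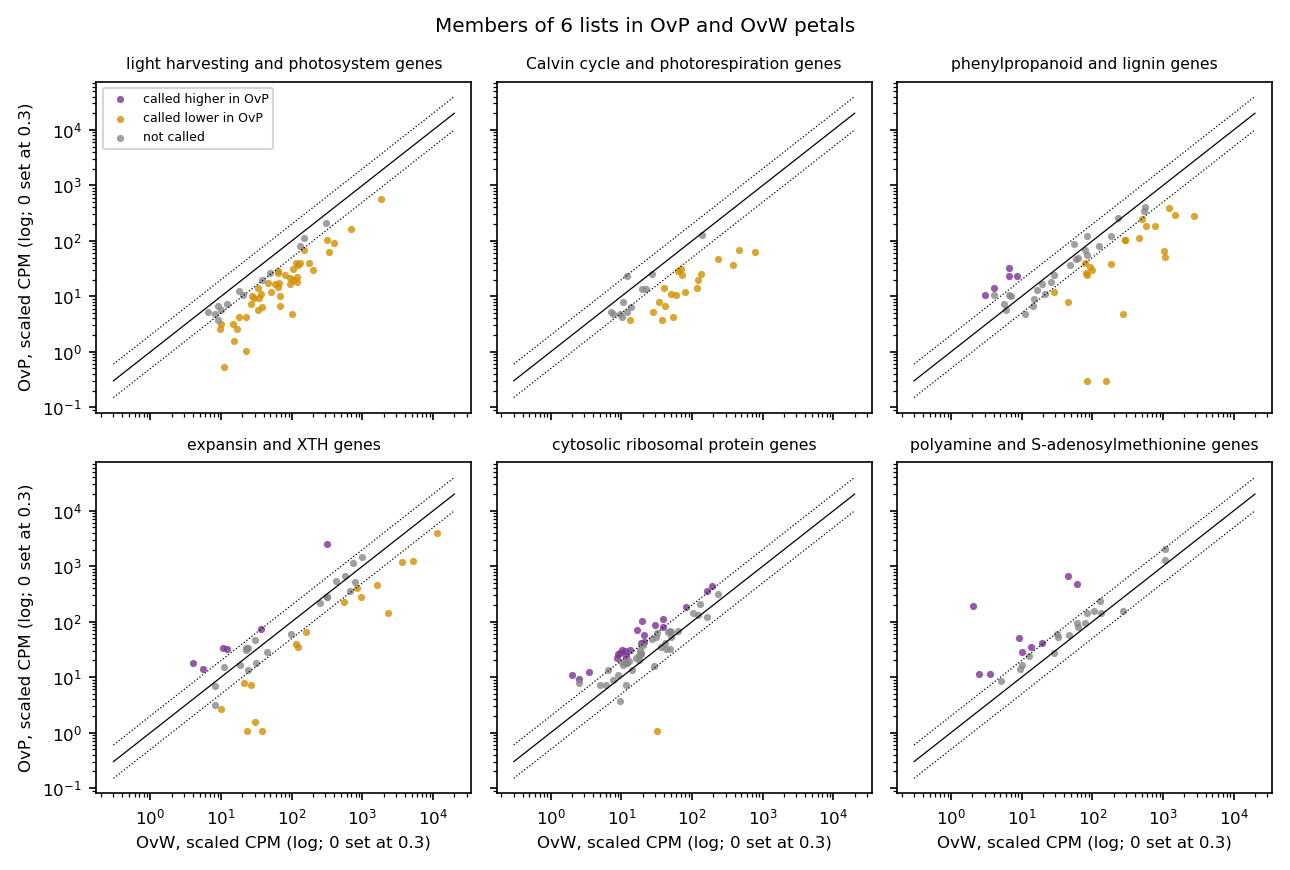
Each point is a compared gene of 1 of 6 lists, with its scaled level in OvW on the x axis and in OvP on the y axis (CPM, log scales, 0 drawn at 0.3). The solid line marks equal levels and the dotted lines a fold of 2. Light harvesting, Calvin cycle and most called phenylpropanoid genes lie below the line, the ribosomal and polyamine genes mostly above it, and the expansin and XTH genes on both sides.

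Outside the anthocyanin branch, most called genes of the phenylpropanoid pathway were lower in OvP. The pathway turns phenylalanine into hydroxycinnamates and then into lignin precursors, flavonoids or esters. Of 52 genes, 22 were lower and 5 higher, with a median log2 fold of -0.70, and their summed reads were 8026 in OvP against 27731 in OvW. *PAL1*, of phenylalanine ammonia-lyase at the entry of the pathway, had 550 reads in OvP against 2899 in OvW at Bra005221 (5.07 times lower, 4.63 to 5.57). Its other copy, Bra017210, had 742 reads in OvP against 2377 in OvW (3.08 times lower, 2.84 to 3.35). *CCoAOMT1* encodes caffeoyl-CoA O-methyltransferase, which methylates lignin precursors, and both of its copies were lower. Bra017624 had 531 reads in OvP against 5479 in OvW (9.93 times lower, 9.08 to 10.9), and Bra034600 had 98 reads in OvP against 2138 in OvW (21.00 times lower, 17.1 to 25.98). The level of Bra017624 per gene length was 361.8 RPKM in OvP and 3397 RPKM in OvW. *CCR2*, a cinnamoyl-CoA reductase gene, had no reads in OvP at either copy. Bra035150 had 0 reads in OvP against 309 in OvW (at least 99.1 times lower, from 80.1), and Bra008438 had 0 reads in OvP against 165 in OvW (at least 52.9 times lower, from 42.6).

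Cinnamate 4-hydroxylase, the second enzyme of the pathway, is encoded by *REF3*, and its 5 copies did not move together. Bra018311, Bra021636 and Bra022803 were lower, Bra021637 was higher with 44 reads in OvP against 13 in OvW (3.52-fold higher, 1.86 to 7.12), and Bra022802 was not called. Their sum was 237 reads in OvP against 543 in OvW, 2.20 times lower. The other 4 higher genes of the list were laccases, enzymes that couple lignin precursors in the wall. *LAC17* had 62 reads in OvP against 13 in OvW (4.96-fold higher, 2.70 to 9.82), 2 copies of *LAC11* had 44 against 17 and 27 against 8, and *LAC10*, picked here after its values were seen, had 20 against 6. *UGT84A1*, whose Arabidopsis enzyme glucosylates hydroxycinnamates, had 9 reads in OvP against 530 in OvW (56.7 times lower, 29.6 to 125).

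Glycosyltransferases attach sugars to small molecules, and 43 of their genes had 10 higher and 8 lower. The 4 highest were all of the *UGT73* group. *UGT73B1* had 230 reads in OvP against 26 in OvW (9.19-fold higher, 6.11 to 14.4), and *UGT73C5* had 125 reads in OvP against 19 in OvW (6.84-fold higher, 4.20 to 11.7), or 276 against 74 over its 4 copies, 3.89-fold higher. Among the lowest were *UGT75B1*, with 152 reads in OvP against 2671 in OvW (16.9 times lower, 14.4 to 20.05), and *UGT75B2*, with 123 reads in OvP against 1214 in OvW (9.50 times lower, 7.89 to 11.5). Bra005227, matched to AT2G36970, had 0 reads in OvP against 108 in OvW (at least 34.6 times lower, from 27.7).

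Genes of wall remodelling were mostly lower in OvP where called. Xyloglucan endotransglucosylases (XTHs) cut and rejoin xyloglucan chains, and expansins loosen the wall. Of 44 such genes, 17 were lower and 6 higher, with a median log2 fold of -0.66 and summed reads of 31696 in OvP against 64832 in OvW. *XTH4* had 7611 reads in OvP against 22314 in OvW (2.82 times lower, 2.75 to 2.90), which was 4538 RPKM in OvP and 12105 RPKM in OvW. *XTH24* was lower at its 3 copies, of which Bra010292 had 2384 reads in OvP against 10223 in OvW (4.13 times lower, 3.95 to 4.32). *XTH7* had 272 reads in OvP against 4501 in OvW (15.9 times lower, 14.1 to 18.1). *XTH8* went the other way, with 4798 reads in OvP against 628 in OvW (7.94-fold higher, 7.30 to 8.64), and at 2823 RPKM in OvP and 336.5 RPKM in OvW it was the most strongly read member that was higher in OvP. *EXPA4* expansin copies Bra000142 and Bra017059 were also higher, with 63 against 21 and 35 against 8 reads in OvP against OvW.

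Pectin and wall glycosidase genes trim galactan, xylan and pectin side chains, and of 68 such genes 21 were lower and 4 higher (median log2 fold -0.60). *BXL1*, a beta-xylosidase gene, was lower at 3 copies and had 225 reads in OvP against 1526 in OvW over all copies, 6.50 times lower. *BGAL2*, a beta-galactosidase gene, had 17 reads in OvP against 200 in OvW (11.3 times lower, 6.90 to 19.8). *PGIP2* encodes an inhibitor of pectin-degrading polygalacturonase and had 4 reads in OvP against 117 in OvW (28.1 times lower, 10.7 to 105), and over its 3 copies it was 14.4 times lower. The higher ones were 2 copies of the pectin methylesterase gene *PME1*, a copy of the xylosidase gene *XYL1*, whose sum over copies of 366 against 311 was not called, and *GAE4*, of UDP-glucuronate epimerase, with 26 reads in OvP against 4 in OvW (6.75-fold higher, 2.34 to 26.6).

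Genes that build cellulose and hemicellulose had 10 higher and 9 lower of 55, with a median log2 fold of -0.01. Lower were *CSLG2* and *CSLG3*, of the cellulose synthase-like G family, at 2 copies each. They had 1131 reads in OvP against 3461 in OvW and 768 against 2542. Higher was *UXS1*, of UDP-xylose synthesis, with 238 reads in OvP against 45 in OvW (5.50-fold higher, 3.98 to 7.74). *CSLC4* makes the glucan backbone of xyloglucan, and its copy Bra033039 had 139 reads in OvP against 28 in OvW (5.16-fold higher, 3.42 to 8.04), but the sum of its 3 copies was 642 against 532 and not called. Arabinogalactan proteins are glycoproteins of the cell surface, and 19.2% of 26 such genes were called, against 22.3% of all compared genes. Of these, 4 were higher, 2 of them copies of the fasciclin-like *FLA1*, and 1 was lower. This was a copy of *FLA17* with 31 reads in OvP against 81 in OvW (2.51 times lower, 1.64 to 3.94), while its 3 copies summed to 406 against 333, a ratio of 1.27, which was not called.

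Polyamine genes were higher in OvP where called. Polyamines are small cations made from arginine, with decarboxylated S-adenosylmethionine as the donor of further amino groups. Of 27 genes of this path and of S-adenosylmethionine synthesis, 9 were higher and none was lower, with a median log2 fold of 0.73. *SPE2*, of arginine decarboxylase, had 362 reads in OvP against 4 in OvW at Bra034648 (94.04-fold higher, 36.4 to 347). Its copy Bra017672 had 922 reads in OvP against 121 in OvW (7.92-fold higher, 6.54 to 9.65), and the remaining 3 copies were not called. The 5 copies of *SPE2* summed to 1864 reads in OvP against 578 in OvW, 3.37-fold higher. *SAMDC*, of S-adenosylmethionine decarboxylase, was split more widely. Bra021458 had 1278 reads in OvP against 89 in OvW (14.9-fold higher, 12.03 to 18.7), whereas Bra001046 had 293 against 540 and was not called. The sum over the 7 copies of *SAMDC* was 1810 reads in OvP against 811 in OvW, 2.33-fold higher. *PAO2* encodes a polyamine oxidase, which breaks polyamines down, and its 3 copies were all higher, with 173 reads in OvP against 43 in OvW. *SAM2*, of S-adenosylmethionine synthetase, had the most reads of the list and was not called at any of its 3 copies.

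Cytosolic ribosomal protein genes also lay above the median of all genes. Of 61, 21 were higher and 1 was lower, 52 had a fold above 1, and the median log2 fold was 0.64. *RPS6A*, of small subunit protein S6, had 200 reads in OvP against 39 in OvW at Bra010227 (5.33-fold higher, 3.77 to 7.72) and 51 against 19 at Bra009039, and its 3 copies summed to 281 against 115, 2.55-fold higher. *EMB2296*, of large subunit protein L8, had 844 reads in OvP against 383 in OvW at Bra039911 (2.29-fold higher, 2.03 to 2.59). The lower gene was a copy of *RPS13A*, Bra003427, with 2 reads in OvP against 64 in OvW (30.8 times lower, 8.18 to 259.8), while another copy, Bra004901, was higher. The 4 copies of *RPS13A* summed to 260 reads in OvP and 240 in OvW, which was not called. With reads summed over copies, 8 of 25 ribosomal protein genes were higher and none lower.

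Heat shock genes had 13 higher and 3 lower of 55, with a median log2 fold of 0.40. Their products refold or hold other proteins. *HSP17.6II*, of a small chaperone, was higher at its 3 copies, with 1612 reads in OvP against 340 in OvW over all, 4.95-fold. The highest copy, Bra023360, had 1095 reads in OvP against 197 in OvW (5.78-fold higher, 4.96 to 6.76). *HSP90.2*, of a cytosolic HSP90 chaperone, had 532 reads in OvP against 151 in OvW at Bra028924 (3.66-fold higher, 3.05 to 4.42), but its 4 copies summed to 982 against 558 and were not called. The 3 lower genes were all copies of *HSP70-1*, of a constitutive HSP70 chaperone: Bra035909 had 377 against 2911, Bra013046 had 161 against 750 and Bra024699 had 73 against 243 reads in OvP against OvW. A further copy, Bra009583, had 8750 reads in OvP against 2570 in OvW (3.54-fold higher, 3.39 to 3.70), and over 8 copies the sum of 11307 against 7597 was not called. Of the 5 compared heat shock factor genes none was called.

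Abscisic acid, cold and drought genes had 13 higher and 5 lower of 59 (median log2 fold 0.28). *RD22*, a drought-responsive gene, was higher at 2 of 3 copies and had 3726 reads in OvP against 1474 in OvW over all. *P5CS1*, of proline synthesis, had 2144 reads in OvP against 715 in OvW at Bra005012 (3.12-fold higher, 2.86 to 3.40), while *P5CS2*, of the same step, was lower at Bra007179 with 155 against 504. *GolS8*, named in the sheet as a galactinol synthase gene, had 109 reads in OvP against 26 in OvW (4.36-fold higher, 2.82 to 6.96), and over both copies it was 2.64-fold higher. Genes of protein phosphatases that restrain abscisic acid signalling were split: *HAI2* had 35 reads in OvP against 6 in OvW (6.06-fold higher, 2.52 to 17.6), and *HAI3* had 0 reads in OvP against 42 in OvW (at least 13.5 times lower, from 10.5). The dehydrin genes *ERD14* and *LTI45*, with the most reads of the list, had ratios of 0.773 and 0.805 and were not called.

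Senescence and autophagy genes had 5 higher and 1 lower of 45, a called share of 13.3% that is below the 22.3% of all compared genes. *SEN2*, of a catalase, had 234 reads in OvP against 29 in OvW at Bra012238 (8.38-fold higher, 5.69 to 12.8), and over its 3 copies 645 against 315, 2.14-fold higher. *ATG8F*, of the autophagosome membrane, had 410 reads in OvP against 109 in OvW (3.91-fold higher, 3.16 to 4.87). *SGR*, a stay-green gene of chlorophyll breakdown, had 25 reads in OvP against 1 in OvW at Bra028385 (25.98-fold higher, 4.25 to 1067), but its 3 copies summed to 206 against 178 and were not called. *SAG2*, of a vacuolar peptidase, was 2.83-fold higher at Bra020255 (68 against 25), but with its other copy it had 389 against 269 and was not called. *YLS7*, picked after its values were seen, had 18 against 5 reads. The lower member was *WRKY6*.

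Jasmonate genes moved both ways, 11 higher and 11 lower of 54. Jasmonates are lipid-derived hormones of defence and of stamen and petal maturation. *LOX1* encodes a lipoxygenase, an enzyme that oxidises fatty acids, and had 261 reads in OvP against 5 in OvW (54.2-fold higher, 22.9 to 168). Whether it serves jasmonate synthesis was not tested. *JMT*, of the methyltransferase that makes volatile methyl jasmonate, had 65 reads in OvP against 5 in OvW at Bra025753 (13.5-fold higher, 5.50 to 42.99) and 563 against 154 at Bra016498, and with another copy that was not called the sum was 2.25-fold higher. *CYP94B1*, whose Arabidopsis enzyme oxidises and so inactivates jasmonoyl-isoleucine, had 121 reads in OvP against 4 in OvW at Bra029224 (31.4-fold higher, 11.96 to 117), and over its 3 copies it was higher on 161 against 12 reads. Among the lower genes, *JAR1*, of jasmonoyl-isoleucine synthesis, had 8 reads in OvP against 42 in OvW (5.05 times lower, 2.34 to 12.5), and over its 3 copies it was 2.49 times lower. *TIFY11A*, of a JAZ repressor, had 14 reads in OvP against 121 in OvW over its copies, and the jasmonate-responsive *JR1* had 10 reads in OvP against 133 in OvW (12.8 times lower, 6.75 to 27.3).

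Salicylate and immunity genes had 12 lower and 3 higher of 47 (median log2 fold -0.48). *PDF1.2b*, of an antifungal defensin, was lower at its 3 compared copies and had 353 reads in OvP against 1107 in OvW over all. The receptor-like kinase gene *CRK41* had 3 reads in OvP against 55 in OvW (17.6 times lower, 5.73 to 88.2), and over its 3 copies it was 8.35 times lower. Higher were *MLO11*, of the MLO family of membrane proteins, with 383 against 166, the *NDR1*-like *NHL1*, with 173 against 80, and the receptor-like kinase gene *CRK11*, with 154 against 76 reads in OvP against OvW. The *CRK11* sum over its copies, 175 against 93, was not called.

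Of 74 cytochrome P450 genes, 13 were higher and 18 lower. These enzymes oxidise many kinds of specialised metabolites. *CYP71B5* was higher at both copies, with 267 reads in OvP against 6 in OvW at Bra006987 (46.2-fold higher, 20.97 to 127) and 61 reads in OvP against 0 in OvW at Bra003129 (at least 21.1-fold higher, from 16.7). The *CYP96A* group was split between members with consecutive identifiers on chromosome A06. *CYP96A9* (Bra033622) had 3786 reads in OvP against 966 in OvW (4.07-fold higher, 3.79 to 4.38), and *CYP96A10* (Bra033623) had 92 reads in OvP against 1246 in OvW (13.03 times lower, 10.5 to 16.3). Related neighbours such as these can share reads, so that the value of each is uncertain. *CYP96A1* was lower at both copies, with 90 reads in OvP against 950 in OvW.

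Auxin genes were mostly lower where called, 22 lower and 3 higher of 81 (median log2 fold -0.39). Auxin drives cell expansion, and Aux/IAA proteins repress the auxin response factors (ARFs) until auxin removes them. *NIT2* encodes a nitrilase, linked in Arabidopsis to auxin and indole metabolism, and had 116 reads in OvP against 1466 in OvW at Bra028932 (12.2 times lower, 10.1 to 14.8). Of the ARF and Aux/IAA genes, 15 of 36 were lower and none was higher. *SHY2*, an Aux/IAA gene, had 59 reads in OvP against 317 in OvW (5.17 times lower, 3.91 to 6.95), and *IAA4* had 447 reads in OvP against 1597 in OvW (3.44 times lower, 3.09 to 3.83). *ETT*, of auxin response factor 3, was lower at both copies, with 24 reads in OvP against 108 in OvW. *IAA17*, with the most reads of the family, had 2893 reads in OvP against 2834 in OvW, a ratio of 1.06 (1.01 to 1.12), which was not called. The 3 higher genes of the auxin list had few reads, 19 to 31 in OvP. They were *LAX2*, of an auxin importer, *AXR1*, of the machinery that removes Aux/IAA proteins, and *IAR2*. The sums over copies of *LAX2*, 44 against 23, and of *AXR1*, 108 against 93, were not called. *IAR2* is the sheet's symbol for an Aux/IAA gene and was therefore not counted in the family, whose members were taken by symbol.

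Gibberellin, brassinosteroid and cytokinin genes had 2 higher and 9 lower of 38. *LOG8*, of cytokinin activation, had 111 reads in OvP against 337 in OvW (2.92 times lower, 2.35 to 3.65), whereas *LOG1*, of the same step, had 59 reads in OvP against 17 in OvW (3.61-fold higher, 2.07 to 6.60). *RGL3*, of a DELLA repressor of gibberellin response, had 10 reads in OvP against 44 in OvW (4.23 times lower, 2.10 to 9.44). Of 15 ethylene genes, both copies of *ATACO2*, of the last step of ethylene synthesis, were lower, with 577 reads in OvP against 1462 in OvW, and *RAP2.3*, of an ethylene response factor, was higher with 35 against 11 at Bra001640, although its 3 copies summed to 74 against 61 and were not called.

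Cutin and wax genes, which build the petal cuticle, had 11 higher and 11 lower of 68. *GPAT6*, needed for petal cutin in Arabidopsis, was lower at both copies, with 189 reads in OvP against 1352 in OvW, and Bra017137 alone was 9.26 times lower (7.53 to 11.5). *KCS8* had 81 reads in OvP against 439 in OvW (5.22 times lower, 4.11 to 6.70), but *KCS1*, of the same family of fatty acid elongases, was higher at both copies, with 467 against 167 over the copies. *FATB*, of the thioesterase that releases saturated fatty acids from the plastid, was higher at its 3 copies, with 1492 reads in OvP against 552 in OvW. The wax and cutin transporter gene *WBC12* had 3532 reads in OvP against 4492 in OvW and was not called.

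Of 27 genes of plastid isoprenoid precursors and carotenoids, 5 were higher and 3 lower, 29.6% called against 22.3% of all compared genes. With reads summed over copies, 4 of 16 were higher and none was lower. *ISPH*, of the last step of precursor synthesis, had 137 reads in OvP against 2929 in OvW at Bra011522 (20.6 times lower, 17.3 to 24.6). Its other copy, Bra034620, had 3801 reads in OvP against 3543 in OvW, a ratio of 1.11 (1.06 to 1.17), and the sum of both was not called. *ISPG*, of the step before, had 6446 reads in OvP against 12658 in OvW, a ratio of 0.529, just short of a call. In the carotenoid branch, *PSY*, of phytoene synthase, was higher at 2 of 3 copies, with 234 reads in OvP against 109 in OvW over all, and *LYC*, of lycopene cyclase, had 127 reads in OvP against 31 in OvW (4.26-fold higher, 2.86 to 6.52). *LUT5*, of a carotenoid hydroxylase, was also higher, as was *NCED5*, of carotenoid cleavage, picked after its values were seen.

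Of 15 terpene and volatile genes, 5 were lower and none was higher. They were 3 members of the *CYP76C* group, of which a copy of *CYP76C4* had 32 reads in OvP against 234 in OvW (7.04 times lower, 4.85 to 10.5), and the terpene synthase genes *TPS10*, with 15 against 60, and *TPS-CIN*, picked after its values were seen, with 8 against 30. Over its 3 copies *CYP76C4* had 384 against 755 reads and was not called. The terpene synthase gene with the most reads was *TPS02*, with 5625 in OvP against 3873 in OvW, a ratio of 1.51 (1.45 to 1.57), which was not called. It was at 1845 RPKM in OvP and 1156 RPKM in OvW.

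Aquaporins are water channels of cell membranes, and 8 of 26 were higher and 4 lower. *PIP2B*, of the plasma membrane, was higher at Bra023103 (394 against 60 reads, 6.82-fold higher, 5.19 to 9.11) and at Bra023102 (267 against 50, 5.55-fold higher, 4.09 to 7.66), and lower at Bra005215 (1 against 41). Its 4 copies summed to 959 reads in OvP against 337 in OvW, 2.97-fold higher. *TIP2*, of the vacuolar membrane, held the most reads, 10277 in OvP against 14140 in OvW at Bra025210, and was not called. *SUT1*, the sheet's name for a phloem sucrose transporter gene, was higher at both copies, with 488 reads in OvP against 189 in OvW. *XCP1*, of a xylem peptidase, had 266 reads in OvP against 42 in OvW (6.58-fold higher, 4.74 to 9.34), and *XCP2* had 1249 reads in OvP against 529 in OvW over 4 copies. The vascular markers planned also included *APL*, *IRX1* and *IRX3*, but the list as drawn held only copies of *SUT1*, *XCP1* and *XCP2*. Of the 7 compared vascular marker genes of that list, 5 were higher and 1 lower, and they summed to 2003 reads in OvP against 760 in OvW. Beside them lay the higher laccase and aquaporin genes, and the part of vascular cells in those was not tested. Sugar transport and sucrose genes had 7 higher and 7 lower of 42, from *CWINV5*, a cell wall invertase gene with 277 reads in OvP against 29 in OvW (9.93-fold higher, 6.76 to 15.1), to *SWEET12*, a sucrose exporter gene with 2 reads in OvP against 46 in OvW (22.1 times lower, 5.79 to 188). Over both copies *SWEET12* was 6.95 times lower.

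Several of the highest and lowest genes belonged to none of these groups. With no reads in OvW, Bra026646, matched to AT2G01610, had 208 in OvP (at least 72.04-fold higher, from 58.1), and Bra016994, matched to AT4G18870, had 69 (at least 23.9-fold higher, from 18.9). *EXL4*, of an EXORDIUM-like wall protein, had 127 reads in OvP against 1 in OvW (132-fold higher, 23.3 to 5253), or 131 against 2 over both copies. *ENDO2*, a nuclease gene, had 196 reads in OvP against 4 in OvW (50.9-fold higher, 19.6 to 189), and *ATX1*, of a copper chaperone, had 257 reads in OvP against 9 in OvW (29.7-fold higher, 15.4 to 65.6), or 268 against 21 over both copies, 13.3-fold higher. Bra005825 (AT5G04885), Bra017387 (AT2G03410), Bra002102 (AT5G17720) and Bra023324 (AT5G11420) completed the highest genes, with 164 to 2032 reads in OvP and 2 to 107 in OvW. With its other copy the first of these, AT5G04885, was 3.39-fold higher on 322 against 99 reads. On the lower side, *SGP1*, of a small G protein, had 4 reads in OvP against 433 in OvW (104 times lower, 40.4 to 384). *RALF23*, of a signalling peptide, had 0 reads in OvP against 114 in OvW at Bra022168 (at least 36.6 times lower, from 29.3), while its copy Bra001636 had 30 against 58 and was not called, and the sum was 5.49 times lower. *PLIM2c*, of an actin-binding LIM protein, had 0 reads in OvP against 109 in OvW (at least 34.97 times lower, from 27.96). *SDR3*, of a short-chain dehydrogenase, had 1 read in OvP against 100 in OvW (96.2 times lower, 16.9 to 3839). Bra013721 (AT4G23680) had 71 reads in OvP against 2764 in OvW (37.5 times lower, 29.6 to 48.1), and Bra012361 (AT5G28010) had 2 reads in OvP against 135 in OvW.

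Transcription factor genes outside the anthocyanin regulators were called about as often as other genes, 126 of 512 or 24.6% against 22.3%. The called ones were more often lower, 42 higher against 84 lower, and their median log2 fold was -0.19 against -0.01 for all compared genes. The called share ran from 0% of 5 heat shock factor genes to 41.7% of 36 ARF and Aux/IAA genes, of which 15 were lower and none was higher. The bHLH factors had 1 higher and 9 lower of 29 (34.5% called), and homeobox factors 4 higher and 11 lower of 66 (22.7%). WRKY factors had 5 higher and 5 lower of 30 (33.3%), and MYB factors 6 and 8 of 45 (31.1%). NAC factors had 7 and 5 of 46 (26.1%), and DOF and GATA factors 5 and 2 of 29 (24.1%). The shares of the homeobox, NAC, and DOF and GATA families were thus near the 24.6% of all these factor genes. Differences between families were not tested.

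**Figure D4:**
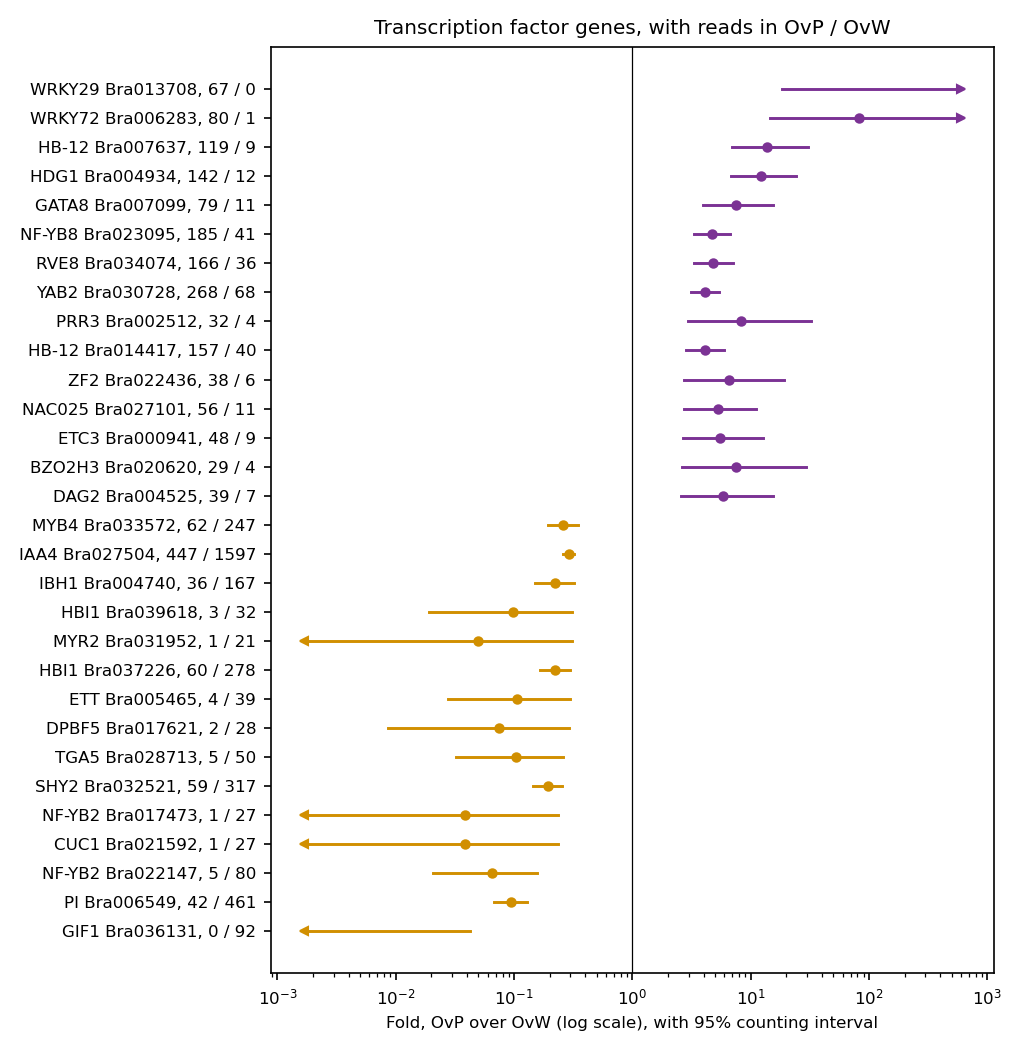
The 15 transcription factor genes highest and the 15 lowest in OvP, ranked by the interval bound nearest to a fold of 1, with the fold of OvP over OvW on the x axis (log scale), 95% counting intervals as bars, arrows where an interval runs off the axis, and reads in OvP and OvW beside each name. The intervals of *WRKY29*, with 67 reads against 0, and *GIF1*, with 0 against 92, have only 1 bound. All 30 intervals lie clear of 1, which follows from the choice of called genes.

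Among factors higher in OvP, *WRKY29*, of a WRKY factor that acts in immune signalling in Arabidopsis, had 67 reads in OvP against 0 in OvW at Bra013708 (at least 23.2-fold higher, from 18.4), with 6 reads in OvP and 8 in OvW on its other copies. *WRKY72*, also of defence in Arabidopsis, had 80 reads in OvP against 1 in OvW (83.1-fold higher, 14.5 to 3324), or 86 against 3 over its 4 copies. *WRKY31* was read more strongly, with 274 reads in OvP against 94 in OvW (3.03-fold higher, 2.39 to 3.87). *WRKY15*, with 32 against 13, and *WRKY3*, picked after its values were seen, with 25 against 9, were the other higher members of the family.

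Homeobox genes for water stress and epidermis followed. *HB-12*, a homeodomain-leucine zipper gene induced by drought in Arabidopsis, was higher at both copies, with 119 reads in OvP against 9 in OvW (13.7-fold higher, 6.999 to 30.8) and 157 against 40 (4.08-fold higher, 2.87 to 5.93). *HDG1*, of a homeodomain factor of the epidermis, was likewise higher at both copies, with 142 reads in OvP against 12 in OvW (12.3-fold higher, 6.82 to 24.4) and 76 against 26. *GATA8*, of a zinc finger factor known from seed germination, had 79 reads in OvP against 11 in OvW (7.46-fold higher, 3.95 to 15.6).

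Clock factors among the higher genes were *PRR3*, of a pseudo-response regulator, with 32 reads in OvP against 4 in OvW (8.31-fold higher, 2.95 to 32.4), and *RVE8*, of a MYB-like activator, higher at both copies with 254 reads in OvP against 71 in OvW. Sampling time could not be compared, since the sources used here do not give it. *YAB2*, of lateral organ polarity, had 268 reads in OvP against 68 in OvW at Bra030728 (4.10-fold higher, 3.13 to 5.43), and *NAC025* had 56 reads in OvP against 11 in OvW (5.29-fold higher, 2.74 to 11.2). *ETC3*, of a small MYB protein of trichome patterning, had 48 reads in OvP against 9 in OvW (5.54-fold higher, 2.69 to 12.8). *RD26*, a drought-responsive NAC gene, was the most strongly read of the higher NAC genes, with 534 reads in OvP against 232 in OvW (2.39-fold higher, 2.05 to 2.80).

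On the lower side, *GIF1* encodes a coactivator of growth-regulating factors that promotes cell number in leaves and petals of Arabidopsis. Its copy Bra036131 had 0 reads in OvP against 92 in OvW (at least 29.5 times lower, from 23.5), its other copies had 14 reads in OvP and 6 in OvW, and the sum was 6.71 times lower. *NF-YB2*, of a histone-fold factor of flowering, was lower at both copies, with 6 reads in OvP against 107 in OvW. *CUC1*, of organ boundaries, had 1 read in OvP against 27 in OvW (25.98 times lower, 4.28 to 1064), or 2 against 28 over both copies. The bZIP gene *TGA5* had 5 reads in OvP against 50 in OvW (9.62 times lower, 3.86 to 30.9).

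Of the lower bHLH genes, *HBI1*, of a bHLH promoter of elongation, had 66 reads in OvP against 320 in OvW over its 3 copies, 4.65 times lower. Another, *PRE6*, of a small helix-loop-helix protein that frees such promoters, had 233 reads in OvP against 792 in OvW at Bra024672 (3.27 times lower, 2.82 to 3.80). *IBH1*, which opposes them, was also lower at Bra004740 with 36 reads in OvP against 167 in OvW (4.46 times lower, 3.10 to 6.59), while Bra037738 had 22 against 14 and was not called. *MYB4*, of a repressor of phenylpropanoid genes in Arabidopsis, was lower at both copies, with 67 reads in OvP against 267 in OvW. *WRKY25*, of heat and salt responses, had 40 reads in OvP against 168 in OvW (4.04 times lower, 2.85 to 5.86).

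Of 17 floral MADS-box genes, 1 was higher and 3 were lower, 23.5% called against 22.3% of all compared genes. *PI* had 42 reads in OvP against 461 in OvW at Bra006549 (10.6 times lower, 7.69 to 14.9), but its more strongly read copies Bra020093 and Bra002285 had 1691 against 3208 and 1420 against 2256 and were not called, nor was the sum. *SEP3* was lower at 2 of its 3 copies and just past a call as a sum, 2.04 times lower on 318 against 678 reads. *SEP2* was higher at Bra039170, with 248 reads in OvP against 97 in OvW (2.66-fold higher, 2.09 to 3.40). Both *SEP* genes encode MADS-box partners of the petal factors. The MYB genes of late petal growth and scent that had the most reads, *MYB57* with 2858 in OvP against 3067 in OvW and *MYB21* with 1198 against 806, were not called. Of 25 factors that limit or promote petal size 24.0% were called, near the share of all compared genes, with 6 lower and none higher. Among them was a copy of *MYB16*, of conical epidermal cells, with 25 reads in OvP against 86 in OvW (3.31 times lower, 2.10 to 5.40), but Bra023515 had 58 against 49, and the sum of 86 against 146 was not called. A copy of *NGA1* had 186 against 387, and its sum of 214 against 437 was not called.

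Many of these results depend on which *B. rapa* copy took the reads. Of 3645 Arabidopsis genes with 2 or more compared copies, 121 were higher at all copies, 154 lower at all, and 68 had copies called in both directions. With the reads summed over copies, 1050 Arabidopsis genes (9.67%) were higher and 1144 (10.5%) lower of 10858 compared, so that 20.2% were called. Another copy with reads existed for 2433 called genes, and for 1538 of these (63.2%) the sum was called in the same direction, for 882 it was not called, and for 13 it was called in the opposite direction. Among the 52 called genes with 0 reads in 1 library, 26 had reads on another copy, and for 18 of those the sum kept the call. *NF-YB8*, of a histone-fold factor, shows the pattern: Bra023095 had 185 reads in OvP against 41 in OvW (4.69-fold higher, 3.33 to 6.75), Bra017209 had 40 reads in OvP against 139 in OvW (3.34 times lower, 2.34 to 4.88), and the sum of 225 against 180 was not called. At such genes it cannot be told apart whether a copy or the assignment of its reads differed between OvP and OvW.

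**Figure D5:**
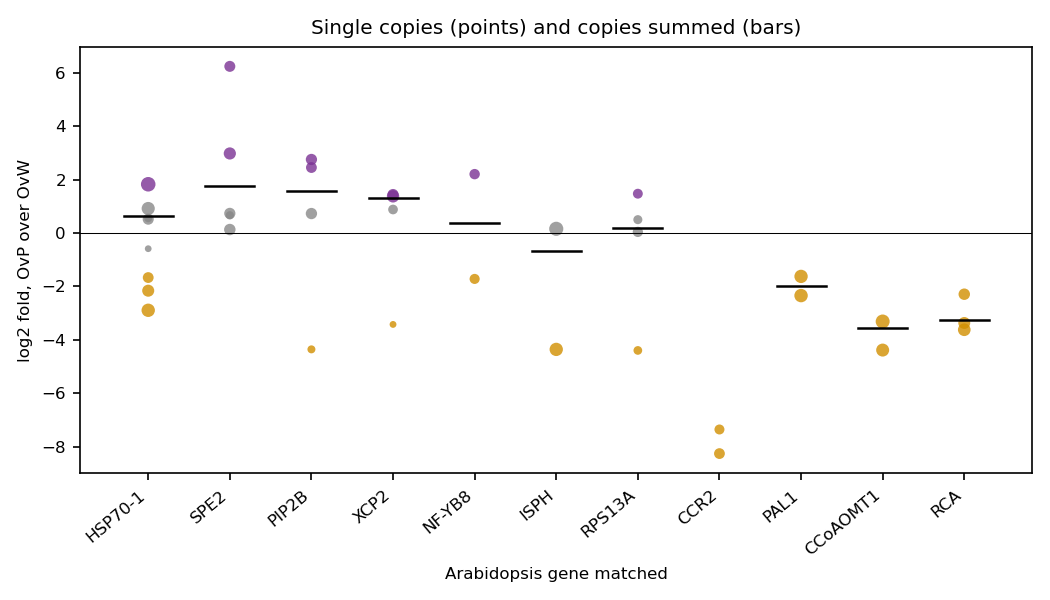
For 11 Arabidopsis genes, the log2 fold of OvP over OvW of each matched *B. rapa* gene (points, larger with more reads; purple higher, ochre lower, grey not called) and of the reads summed over the copies (bars, none drawn for *CCR2*, which had 0 reads in OvP). Copies of *PAL1*, *CCoAOMT1* and *RCA* lie together, whereas those of *HSP70-1*, *NF-YB8* and *ISPH* lie on both sides of their sum, none of which was called.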

How the data were processed

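Per the labels, the authors sequenced petal RNA of 4 plant materials, 1 library each, and the submitters' processing notes name TopHat, DESeq, Cufflinks and Cuffdiff without versions. Reads were mapped to the *B. rapa* genome, while for the genome version, the counting tool and the strand setting the sources used here give nothing. The deposited sheets hold the authors' read counts per gene and their RPKM values, which scale reads to gene length and mapped reads, with the Arabidopsis match of each *B. rapa* gene. The counts of OvP and OvW were used for all tests, and the RPKM for levels and in 1 alternative. The other 4 per-sample columns, of the 2 libraries not compared here, were not used. In 36 rows the symbol had been turned into a date, and those genes were matched by locus name.

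Counts were scaled by TMM and compared with the exact binomial test of edgeR 4.0.16 in R 4.3.3, the test stated for the study being edgeR with a p of 0.01 and a fold of 2. Genes with 20 or more reads over both libraries were compared, and log2 folds used a prior count of 1. Intervals were Clopper-Pearson at 95%, and PCR copies cannot be told apart from molecules. DESeq2 1.42.0 gave other size factors. Its factors over all genes came out equal, so that factors from genes with 20 or more reads, and a comparison of genes read in both libraries, were added after seeing the data. Other minima (1, 10, 50 and 100 reads), prior counts, BCVs of 0.1, 0.2 and 0.4, a fold of 4, Benjamini-Hochberg adjustment, RPKM folds and reads summed over copies were the further alternatives. Figures were drawn with matplotlib 3.10.9, and intervals came from SciPy 1.17.1 under Python 3.11.15, with pandas 2.3.3 and numpy 2.4.6 for the tables.

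The 41 function lists and 20 transcription factor families were drawn on Arabidopsis symbols, and members and lists were chosen with earlier results of these data known. The genes named are the 15 highest and 15 lowest called genes with an Arabidopsis match and the 15 highest and 15 lowest transcription factor genes, ranked by the interval bound nearest to a fold of 1. To these come, in each list, the 4 highest, the 4 lowest and the 2 with the most reads, and the copies of any of them. Genes named outside this rule are said to be picked after their values were seen. No sequence of the petals or of the *B. rapa* genes was used here.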

Additional observations from a re-analysis of the deposited data

How the results depend on the processing

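No paired analysis was possible because each plant material has 1 library, and for the same reason no library could be left out. Scaling by total reads or by DESeq2 size factors left the gene counts within 1.5 times, and 1 Calvin cycle gene was higher with total reads. The share of calls that were higher was 48.5%, and 55.0% with total reads. It was 44.4% with DESeq2 size factors over all genes, which came out equal and so scaled nothing. With DESeq2 size factors from genes with 20 or more reads it was 49.6%. Benjamini-Hochberg adjustment left 1429 higher and 1524 lower genes, and 0 higher auxin genes. A minimum of 100 reads left 646 higher and 757 lower genes, 16 and 33 transcription factor genes, and 11 higher and 0 lower ribosomal protein genes. It left 12 lower and 0 higher auxin, 28 lower photosystem, 5 higher polyamine, 0 higher phenylpropanoid and 2 lower abscisic acid genes. The median log2 fold was then -2.37 for Calvin cycle and -1.47 for phenylpropanoid genes. A minimum of 50 reads left 26 higher transcription factor, 2 lower abscisic acid, 0 higher auxin and 3 higher phenylpropanoid genes, with a Calvin cycle median of -2.29.

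Assuming a biological coefficient of variation (BCV) of 0.2 left 917 higher and 1083 lower genes, 52 lower transcription factor genes, 0 higher and 13 lower auxin, 11 higher ribosomal protein, 2 higher phenylpropanoid and 5 higher polyamine genes. A BCV of 0.4 left 226 higher and 330 lower genes, 6 and 11 transcription factor genes, 12 lower Calvin cycle, 14 lower photosystem, 0 higher and 8 lower phenylpropanoid and 3 higher polyamine genes. It left 0 higher and 1 lower abscisic acid, 0 and 4 auxin and 1 and 1 heat shock genes, and 1 higher ribosomal protein gene. A fold of 4 left 559 higher and 634 lower genes, 21 and 30 transcription factor genes, 3 and 2 abscisic acid, 0 and 7 auxin and 1 and 10 phenylpropanoid genes. It left 24 lower photosystem genes and 3 higher ribosomal protein, 3 higher heat shock and 5 higher polyamine genes.

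Summing reads over copies gave 1050 higher genes and 52 lower transcription factor, 11 lower Calvin cycle and 27 lower photosystem genes. It gave 7 higher abscisic acid, 8 higher and 0 lower ribosomal protein, 7 higher and 0 lower heat shock and 5 higher polyamine genes. Some medians near 0 changed sign. With a minimum of 1 read these were aquaporin genes (-0.12), guard cell markers (0.25) and EIN3 and other hormone factors (0.27), and with 50 reads WRKY factors (0.12). With 100 reads they were anthocyanin regulators (-0.10), sepal and leaf markers (-1.68), AP2/ERF (0.14), DOF and GATA (-0.41) and WRKY factors (0.25). With copies summed they were sepal and leaf markers (-0.73), AP2/ERF (0.50) and WRKY factors (0.13).

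Of 365 called genes chosen by the naming rule, 348 kept the call after Benjamini-Hochberg adjustment, 347 with total reads and 356 with DESeq2 size factors. At a BCV of 0.2 the call stayed for 299, and at 0.4 for 133. The adjustment and the BCVs change only the p, so no call could reverse there. None reversed with total reads or DESeq2 size factors. Summing over copies was not in this tally. Of 2433 called genes with another copy read, 882 were then not called and 13 were called in the opposite direction. Folds from the deposited RPKM kept 337 of the 349 calls with reads in both libraries. The limits are 1 library per plant material, reads of *O. violaceus* counted on the genes of another species, and fewer than 50 reads for 34.6% of the compared genes.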

Other observations

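Nitrogen and sulphur genes were among the called transport genes. The nutrient transport and starvation list had 17 higher and 15 lower genes of 107, with a median log2 fold of 0.03. *NRT1.7*, of a phloem nitrate transporter, had 546 reads in OvP against 169 in OvW at Bra016259 (3.36-fold higher, 2.82 to 4.01) and 37 against 2 at Bra003979, and over its 4 copies it was 2.10-fold higher. *GLN1;4*, of a cytosolic glutamine synthetase, had 1905 reads in OvP against 4584 in OvW (2.32 times lower, 2.19 to 2.44). *SULTR3;1*, of a sulphate transporter, was lower at Bra006882, with 147 reads in OvP against 430 in OvW (2.82 times lower, 2.33 to 3.42), and at Bra012831. Of 45 histone and cell cycle genes, 4 were higher and 4 lower, 17.8% called against 22.3% of all compared genes. *HTB1*, a histone H2B gene, had 122 reads in OvP against 27 in OvW (4.70-fold higher, 3.07 to 7.41), or 245 against 96 over both copies, 2.66-fold higher. A copy of *HTB4*, another H2B gene, had 45 reads in OvP against 96 in OvW (2.05 times lower, 1.43 to 2.99), but its sum of 55 against 104 was not called.

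Defence and detoxification genes outside the groups above moved both ways. Glucosinolates are sulphur compounds that myrosinases cut on wounding, and 6 of 40 genes of both were higher and 2 lower. The called share of this list was below the 22.3% of all compared genes. *TGG2*, a myrosinase gene, had 21 reads in OvP against 2 in OvW (10.9-fold higher, 2.67 to 95.98), and *NSP5*, of a protein that turns the products to nitriles, was higher at Bra020713, with 71 against 19, and at Bra037506, with 96 against 44 reads in OvP against OvW. Glutathione transferases had 4 higher and 3 lower of 23. *GSTL2* had 128 reads in OvP against 15 in OvW (8.87-fold higher, 5.18 to 16.3), *GSTU5* had 295 reads in OvP against 78 in OvW (3.93-fold higher, 3.05 to 5.11; 2.33-fold over both copies), and *GSTU21* had 7 reads in OvP against 41 in OvW (5.64 times lower, 2.50 to 14.9). Of 21 circadian clock genes, 5 were higher and 3 lower. *GRP8*, of an RNA-binding protein under clock control, had 522 reads in OvP against 198 in OvW at Bra010693 (2.74-fold higher, 2.32 to 3.24), but its 3 copies summed to 579 against 308 and were not called. *CDF3*, of a DOF factor of the photoperiod pathway, had 30 reads in OvP against 94 in OvW (3.02 times lower, 1.98 to 4.71).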
